A study of Mus musculus with 24 samples.

Results

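The CC chemokines Ccl2, Ccl3, Ccl4, Ccl5, Ccl6, Ccl7, Ccl8, Ccl9 and Ccl12 were followed through brain tissue of mice with traumatic brain injury (TBI). These 9 genes were taken by symbol from a table of 36333 genes, and all 9 passed the filter on low values that left 17267 genes for testing. RNA was sequenced from 24 male mice killed 5 days after controlled cortical impact (5 dpi) or sham surgery, with 1 library per mouse. The labels give the strain as C57BL6N and the age as 12 to 16 weeks for every group. The labels name no engineered allele in any group. Vehicle mice had TBI without a drug (n = 5). The PLX3397 group (n = 5) had TBI and ate pellets with 290 mg of this CSF1R inhibitor per kg of food, from 90 min after the impact until the end. The Anakinra group (n = 5) had TBI and was injected subcutaneously with 100 mg/kg of this blocker of the receptor IL1R1, at 5 min and at 24, 48 and 72 h. The PLX3397+Anakinra group (n = 5) had TBI and received both drugs on these schedules. Sham mice (n = 4) were anaesthetized and had the skin cut and sutured, without craniotomy or impact. Comparisons with sham therefore cover craniotomy and impact together. PLX3397 acts on every CSF1R-dependent cell and not on microglia alone. The RNA came from a bulk tissue block, so fewer cells of a type and less RNA per cell cannot be told apart.

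CC chemokines are small secreted proteins named for a pair of adjacent cysteines near the start of the mature protein. They bind G protein-coupled CC receptors on leukocytes and draw these cells along a gradient. Ccl2, Ccl7, Ccl8 and Ccl12 are monocyte chemoattractant proteins, and CCR2 is the main receptor of Ccl2, Ccl7 and Ccl12. Ccl3 and Ccl4 are macrophage inflammatory proteins, Ccl5 attracts T cells and monocytes, and Ccl6 and Ccl9 are rodent ligands of CCR1. In injured brain, microglia, astrocytes, endothelium and infiltrating myeloid cells are known to make chemokines of this family.

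All 9 genes lie on chromosome 11 in the GRCm38 genome build. A first block of 81.2 kb holds, on the plus strand, Ccl2 (chr11:82035577-82037452), Ccl7 (chr11:82045712-82047525), Ccl12 (chr11:82101845-82103399) and Ccl8 (chr11:82115185-82116799). A second block of 138.9 kb begins 1409 kb further on. It holds Ccl5 (chr11:83525778-83530518), Ccl9 (chr11:83572917-83578636), Ccl6 (chr11:83587886-83593087) and Ccl3 (chr11:83647843-83649378) on the minus strand and Ccl4 (chr11:83648624-83664683) on the plus strand. The coding stretch below, 42 bases of each gene from its GENCODE transcript, is shown because it holds the motif that defines the family. The 2 adjacent cysteine codons are in capitals.
Ccl2: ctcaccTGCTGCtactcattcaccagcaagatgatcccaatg
Ccl7: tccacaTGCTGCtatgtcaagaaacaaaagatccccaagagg
Ccl12: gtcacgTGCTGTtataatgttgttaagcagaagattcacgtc
Ccl8: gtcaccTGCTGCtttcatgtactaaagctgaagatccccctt
Ccl5: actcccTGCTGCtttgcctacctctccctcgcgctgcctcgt
Ccl9: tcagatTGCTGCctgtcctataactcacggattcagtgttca
Ccl6: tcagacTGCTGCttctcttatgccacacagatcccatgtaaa
Ccl3: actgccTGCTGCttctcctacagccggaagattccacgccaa
Ccl4: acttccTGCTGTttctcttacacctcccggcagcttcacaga
Every member had 1 such codon pair in frame, and each stretch lay within 1 coding exon. The stretches are at chr11:82036500-82036541 in Ccl2, chr11:82046532-82046573 in Ccl7, chr11:82102628-82102669 in Ccl12 and chr11:82116050-82116091 in Ccl8. Those of the second block are at chr11:83529212-83529253 in Ccl5, chr11:83575896-83575937 in Ccl9, chr11:83589356-83589397 in Ccl6, chr11:83648622-83648663 in Ccl3 and chr11:83663476-83663517 in Ccl4. The codon pair began at codon 32 to 34 in 7 members, at codon 50 in Ccl6 and at codon 57 in Ccl9, so these 2 carry a longer stretch before it. Over the 36 pairs of members the coding sequences were between 38.9% and 68.4% identical in a global alignment. Ccl3 and Ccl4 were the closest pair (68.4%), followed by Ccl7 and Ccl8 (65.0%) and by Ccl9 and Ccl6 (64.8%). The longest exact run that any 2 members shared was 25 bases, between Ccl9 and Ccl6, against reads of 150 bases. The library protocol does not mark the strand. The RefSeq spans of Ccl3 and Ccl4 overlap on opposite strands over 755 bases, where reads of both genes cannot be told apart, while their GENCODE exons share 0 bases.

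Values are TPM as the authors deposited them, transcript abundance scaled to gene length and to the same total in every library. The depth of the libraries is unknown, since neither counts nor totals of reads were given in the tables used. The striatal and thalamic marker lists were present in every group beside neurons, although the labels name cortex, and the methods describe a block with striatum, hippocampus and thalamus. In vehicle mice the 4 striatal markers summed to 856 ± 131 TPM and the 3 thalamic markers to 115 ± 10.1 TPM (SD, n = 5). Only vehicle animals carry a letter B in their number, and if that letter marks a batch, it cannot be told apart from the vehicle group. Differences are log2 fold changes of log2(TPM + 1) from a single limma model over all 24 libraries, with their standard error (SE). This scale understates the change of genes near 0. A gene passed the test at a Benjamini-Hochberg adjusted p below 0.05 over all 17267 genes. The comparisons with vehicle all share the same 5 vehicle mice.

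The first question was which CC chemokines the injury raised. All 9 were higher in vehicle mice than in sham mice, with no overlap between the groups in any of them. Of all genes tested, 26.6% were called higher in this comparison, and the share of all genes without overlap was not computed. The log2 fold change ran from 2.18 for Ccl8 to 4.12 for Ccl12, with a median of 3.03, while the median of all genes tested was -0.01. Ratios of the group means gave another order, from 8.92 for Ccl9 to 57.0 for Ccl7, with 20.5 for Ccl8 and 34.3 for Ccl12. The highest ratio rests on a sham mean near 0. Summed over the 9 members, the level was 131 ± 21.1 TPM in vehicle mice and 7.30 ± 1.41 TPM (SD, n = 4) in sham mice. In sham mice Ccl6 was the most abundant member at 2.74 ± 0.724 TPM, and its range did not overlap that of the next, Ccl9, at 1.26 ± 0.390 TPM. Ccl7 was listed at 0 in 3 of 4 sham mice and Ccl8 in 2 of 4. In vehicle mice the order of the mean levels was Ccl12, Ccl6, Ccl3, Ccl2, Ccl9, Ccl4, Ccl7, Ccl5 and Ccl8, from 30.5 to 4.57 TPM. Of the neighbours in that order, only Ccl6 and Ccl3 had ranges that did not overlap. Among tested markers, 4 of 4 of astrocytes, 8 of 8 of microglia and 5 of 5 of monocytes were higher after injury too. So were 4 of 4 of neutrophils, 5 of 7 of border macrophages and 3 of 4 of endothelium. Lower were 1 of 7 of border macrophages, 2 of 2 of dendritic cells, 5 of 5 of neurons and 2 of 3 of thalamus. The part of these markers in the result was not tested.

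**Figure D1:**
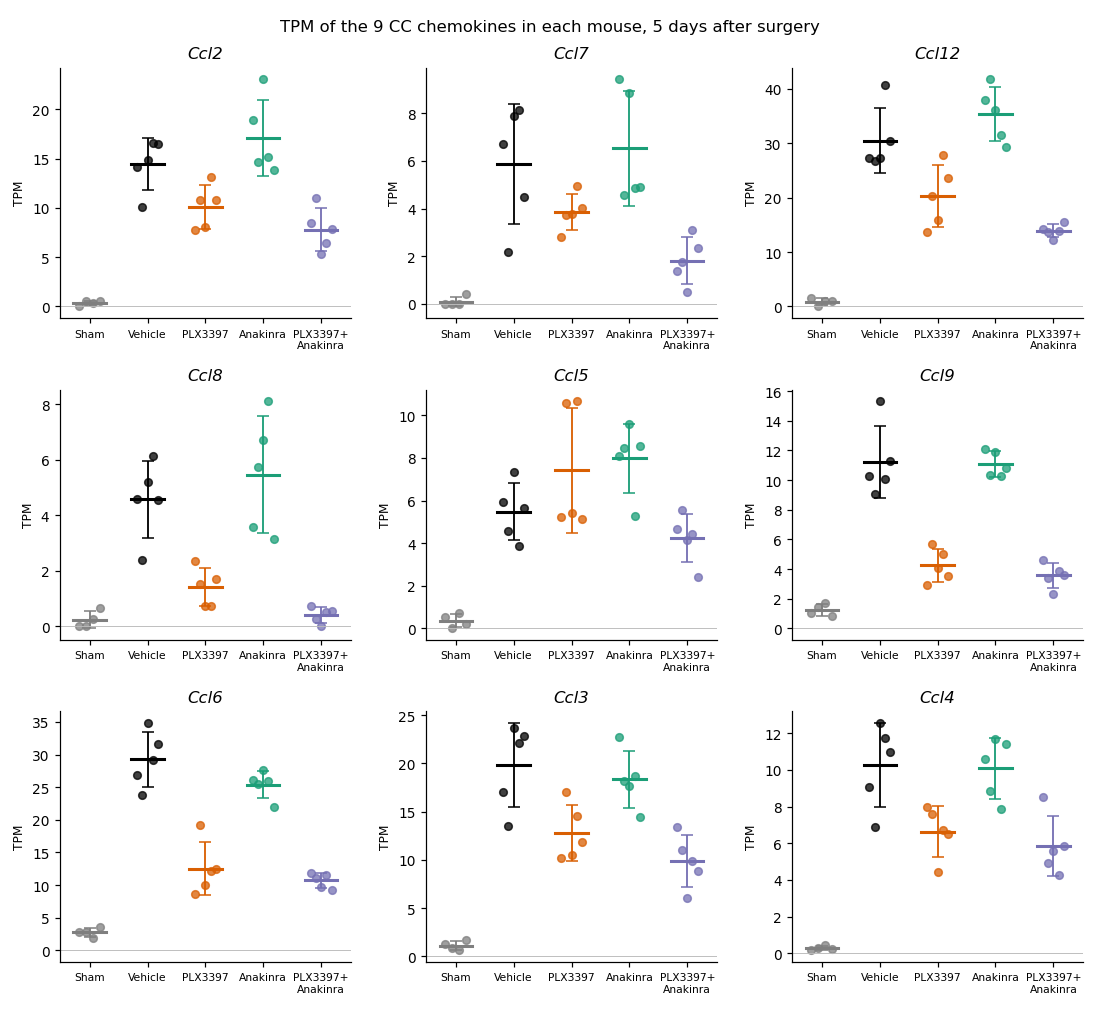
TPM of each CC chemokine (y axis, linear) in sham, vehicle, PLX3397, Anakinra and PLX3397+Anakinra mice (x axis). Points are single mice, thick lines are group means and error bars are SD. All 5 vehicle mice lie above all 4 sham mice for every gene, and the 5 PLX3397+Anakinra mice of Ccl8 sit between 0 and 0.725 TPM, among the sham mice.

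The second question was which members the drugs lowered. With PLX3397 alone, 6 of 9 members were lower than in vehicle mice (Ccl12, Ccl8, Ccl9, Ccl6, Ccl3 and Ccl4), against 6.66% of all genes tested. With Anakinra alone, limma called 0 of 9 members in either direction, against 0.116% of all genes. At an unadjusted p below 0.05 limma and the exact permutation test over the mice each found 1 member, Ccl5, while limma found 12.4% of all genes. With PLX3397+Anakinra, 8 of 9 members were lower than in vehicle mice, all except Ccl5, against 9.6% of all genes. The median log2 fold change of the members was -0.59 with PLX3397, 0.17 with Anakinra and -1.06 with PLX3397+Anakinra. Over all genes tested the 3 medians were 0.01, -0.02 and 0.01. The calls of Ccl8, Ccl9 and Ccl6 with PLX3397 held under every alternative that tested them, except that Ccl8 did not reach the difference of 4 TPM that the study's own criteria ask for. Those of Ccl12, Ccl3 and Ccl4 did not hold under several settings, and the count was 3 with a pseudocount of 0.1, without the filter, or with only the compared groups in the model. It was also 3 without the vehicle mouse J18B, J19B or J20B, or without the PLX3397 mouse J12.

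**Figure D2:**
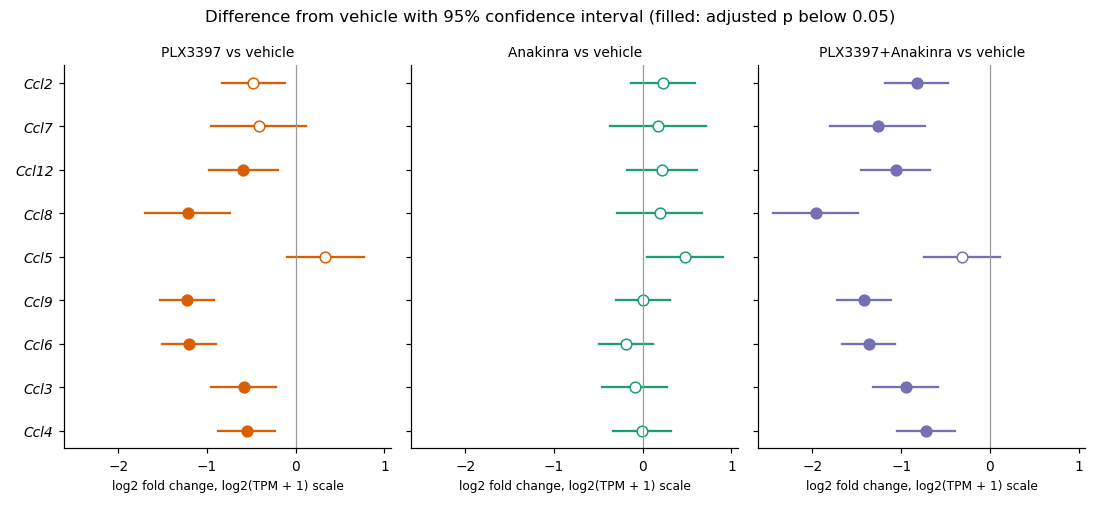
Log2 fold change against vehicle on the log2(TPM + 1) scale (x axis) for each CC chemokine (y axis) with PLX3397, Anakinra or PLX3397+Anakinra. Points are limma estimates, bars are 95% confidence intervals and filled points have an adjusted p below 0.05. Filled points number 6, 0 and 8 in the 3 panels, and Ccl8 has the lowest estimate with both drugs, at -1.97.

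Ccl2, Ccl7 and Ccl12, the CCR2 ligands, were all lower than vehicle with both drugs. With PLX3397 alone the ratio of the group means to vehicle was 0.656 for Ccl7, 0.666 for Ccl12 and 0.701 for Ccl2, and Ccl12 passed the test by a narrow margin. Ccl12 had the highest mean level of the 9 members in each of the 4 TBI groups. Its sham values were 1.59, 0, 0.934 and 1.03 TPM, and vehicle mice had 27.2, 26.8, 27.3, 40.8 and 30.4 TPM. With PLX3397 it stood at 13.6, 20.3, 15.9, 27.9 and 23.7 TPM, with 1 mouse inside the vehicle range. PLX3397+Anakinra mice had 14.3, 13.6, 12.3, 13.9 and 15.5 TPM, a narrow range that lay below every vehicle mouse. Anakinra mice had 37.9, 41.8, 36.1, 31.6 and 29.4 TPM and overlapped vehicle. The log2 fold change of Ccl12 was -0.59 (SE 0.19, adjusted p = 0.0498) with PLX3397 and -1.06 (SE 0.19, adjusted p = 0.000239) with both drugs. Without the vehicle mouse J19B, at 40.8 TPM, the PLX3397 estimate was -0.48 with an adjusted p of 0.151. At a pseudocount of 0.1 the adjusted p of Ccl12 was 0.444 with PLX3397 and 0.084 with both drugs.

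Ccl2, the prototype ligand of CCR2, was at 0, 0.505, 0.311 and 0.546 TPM in sham mice and at 14.2, 10.1, 14.9, 16.6 and 16.5 TPM in vehicle mice. PLX3397 mice had 7.74, 10.8, 8.11, 13.2 and 10.8 TPM. PLX3397+Anakinra mice had 8.43, 10.97, 5.29, 6.47 and 7.83 TPM, of which 1 lay inside the vehicle range. In Anakinra mice the values 18.9, 14.7, 23.1, 15.1 and 13.9 TPM overlapped vehicle, and 2 mice lay above every vehicle mouse. The difference from vehicle was -0.83 (SE 0.17, adjusted p = 0.00136) with both drugs, and at a pseudocount of 0.1 its adjusted p was 0.0627. With PLX3397 alone it was -0.48 (95% confidence interval -0.83 to -0.12) and missed the threshold at an adjusted p of 0.0857. Without the vehicle mouse J17B or the PLX3397 mouse J19 the adjusted p was 0.0238 or 0.0477.

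Ccl7, another monocyte attractant, was listed at 0, 0, 0 and 0.412 TPM in sham mice. Vehicle mice spread widely, at 6.70, 2.20, 7.87, 8.14 and 4.48 TPM, and PLX3397 mice at 2.82, 3.71, 3.77, 4.93 and 4.04 TPM fell inside that range. Anakinra mice had 9.43, 4.57, 8.83, 4.87 and 4.91 TPM. Both drugs together gave 1.39, 1.76, 0.515, 3.09 and 2.33 TPM, so 3 of 5 mice were below the lowest vehicle mouse. The log2 fold change was -1.27 (SE 0.26, adjusted p = 0.00116) with both drugs and -0.42 (95% confidence interval -0.96 to 0.12) with PLX3397.

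Ccl8, a monocyte chemoattractant protein that in the mouse also acts through CCR8, had the lowest mean share of its rise left in both groups given PLX3397. It was at 0, 0, 0.245 and 0.646 TPM in sham mice and at 4.58, 2.38, 5.18, 6.14 and 4.55 TPM in vehicle mice. PLX3397 mice had 2.34, 1.51, 0.738, 0.725 and 1.70 TPM, all below the lowest vehicle mouse, although by a margin of only hundredths of a TPM in 1 mouse. With both drugs the values were 0.725, 0.251, 0, 0.511 and 0.561 TPM and overlapped the sham mice. Anakinra mice had 3.57, 5.72, 6.72, 8.11 and 3.13 TPM. Against vehicle the log2 fold change was -1.22 (SE 0.23, adjusted p = 0.000769) with PLX3397 and -1.97 (SE 0.23, adjusted p = 6.18e-07) with both drugs. Ccl8 sits in the first chromosomal block, beside Ccl12, whose PLX3397 estimate was smaller in size.

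Ccl9 and Ccl6, the CCR1 ligands of the second block, fell with PLX3397 to levels close to those with both drugs. Ccl6 was at 2.77, 2.74, 1.83 and 3.60 TPM in sham mice and at 26.8, 23.8, 34.9, 29.2 and 31.6 TPM in vehicle mice. PLX3397 mice had 8.59, 19.2, 10.1, 12.1 and 12.4 TPM and PLX3397+Anakinra mice 11.8, 11.2, 9.76, 11.5 and 9.28 TPM. Both groups lay below every vehicle mouse and overlapped each other. Anakinra mice had 26.0, 25.5, 27.6, 25.9 and 22.004 TPM. For Ccl6 the log2 fold change was -1.20 (SE 0.15, adjusted p = 1.78e-06) with PLX3397 and -1.36 (SE 0.15, adjusted p = 1.18e-07) with both drugs.

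Ccl9 was at 1.04, 1.44, 1.71 and 0.841 TPM in sham mice and at 10.3, 9.08, 15.3, 10.1 and 11.3 TPM in vehicle mice. With PLX3397 it had 2.95, 5.68, 4.10, 5.01 and 3.52 TPM, and with both drugs 4.64, 3.41, 2.33, 3.90 and 3.57 TPM. Neither group overlapped vehicle, and both stayed above every sham mouse. Anakinra mice, at 12.1, 10.3, 11.9, 10.3 and 10.8 TPM, all lay inside the vehicle range. In limma the difference from vehicle was -1.22 (SE 0.15, adjusted p = 1.84e-06) with PLX3397 and -1.42 (SE 0.15, adjusted p = 8.3e-08) with both drugs. Between both drugs and PLX3397 alone the difference was -0.19 (95% confidence interval -0.50 to 0.11) for Ccl9 and -0.16 (-0.46 to 0.14) for Ccl6. Promoter windows from 250 bases before to 50 after the start site, from RefSeq (GRCm38.p6), were held for 5 members, Ccl12, Ccl8, Ccl9, Ccl6 and Ccl3. They were searched on both strands for the NF-kappaB and ISRE motifs, for AP-1 (TGANTCA), for GAS (TTCNNNGAA) and for PU.1 (GAGGAAGT). Only the Ccl9 window held a match, 1 of NF-kappaB and 1 of AP-1, which do not overlap. The 80 bases before the start of Ccl9 (chr11:83578637-83578716, minus strand) and of Ccl6 (chr11:83593088-83593167, minus strand) are shown because these neighbours moved alike (r = 0.97 over the 20 TBI libraries), with the matches in capitals.
Ccl9: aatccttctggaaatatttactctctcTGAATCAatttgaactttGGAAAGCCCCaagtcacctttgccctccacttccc
Ccl6: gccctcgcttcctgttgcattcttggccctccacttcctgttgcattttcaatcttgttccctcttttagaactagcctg
Of all 32851 promoter windows, 8.46% held the NF-kappaB motif and 7.81% the AP-1 motif, while 3.44% held ISRE, 8.30% GAS and 3.20% PU.1. A match describes the letters only.

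Ccl3 and Ccl4, the macrophage inflammatory proteins, fell less with PLX3397 than Ccl6 and Ccl9 did in the estimates, a difference that was not tested. Ccl3 was at 1.26, 0.859, 0.634 and 1.67 TPM in sham mice and at 17.1, 13.5, 23.6, 22.2 and 22.8 TPM in vehicle mice. PLX3397 mice had 10.2, 17.01, 10.5, 14.5 and 11.8 TPM and overlapped vehicle. PLX3397+Anakinra mice had 13.5, 11.03, 6.09, 9.91 and 8.89 TPM, with the highest just below the lowest vehicle mouse. Anakinra mice had 22.8, 18.2, 17.6, 18.7 and 14.5 TPM, all inside the vehicle range. The log2 fold change of Ccl3 was -0.59 (SE 0.18, adjusted p = 0.0352) with PLX3397 and -0.95 (SE 0.18, adjusted p = 0.000421) with both drugs.

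Ccl4 was at 0.161, 0.307, 0.425 and 0.249 TPM in sham mice and at 9.04, 6.89, 12.6, 11.8 and 10.98 TPM in vehicle mice. PLX3397 mice had 7.96, 7.61, 4.41, 6.71 and 6.48 TPM, and PLX3397+Anakinra mice had 8.54, 4.93, 5.60, 4.28 and 5.84 TPM. Both groups overlapped vehicle through its lowest mouse, J17B. Anakinra mice had 10.6, 8.83, 11.7, 7.87 and 11.4 TPM, inside the vehicle range. Its difference from vehicle was -0.55 (SE 0.16, adjusted p = 0.0246) with PLX3397 and -0.72 (SE 0.16, adjusted p = 0.00201) with both drugs. The adjusted p with PLX3397 ranged up to 0.106 for Ccl3 and 0.0852 for Ccl4 when 1 mouse was left out.

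Ccl5, which attracts T cells and monocytes, was the member that passed no test against vehicle. It was at 0.534, 0, 0.706 and 0.207 TPM in sham mice and at 5.95, 4.58, 7.35, 3.86 and 5.65 TPM in vehicle mice. PLX3397 mice had 5.24, 10.6, 5.43, 10.7 and 5.15 TPM, so 2 of 5 lay above every vehicle mouse and the other 3 within the vehicle range. Anakinra mice had 8.08, 8.48, 9.58, 5.27 and 8.55 TPM, of which 4 of 5 exceeded the highest vehicle mouse. With both drugs the values were 4.65, 5.54, 4.13, 4.41 and 2.42 TPM and overlapped vehicle. Relative to vehicle the log2 fold change was 0.33 (95% confidence interval -0.10 to 0.76) with PLX3397 and 0.48 (0.05 to 0.91, adjusted p = 0.34) with Anakinra. With both drugs it was -0.31 (-0.75 to 0.12, adjusted p = 0.335).

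The third question was whether the drugs differed from each other. PLX3397+Anakinra against PLX3397 gave 0 of 9 members called by limma, against 0.145% of all genes that were lower. At an unadjusted p below 0.05, limma and the exact permutation test each found 4 members lower, while limma found 6.71% of all genes in either direction. The exact two-sided permutation p was 0.0159 for Ccl7, 0.0159 for Ccl8, 0.0317 for Ccl5 and 0.0476 for Ccl12. Their log2 fold changes were -0.85, -0.75, -0.65 and -0.47, with limma adjusted p-values of 0.319, 0.32, 0.361 and 0.583. Against Anakinra alone, PLX3397+Anakinra was lower in 9 of 9 members, against 8.1% of all genes, with log2 fold changes from -2.16 for Ccl8 to -0.71 for Ccl4. Ccl5 was part of this (-0.79, adjusted p = 0.0123), but its adjusted p was 0.0525 without the PLX3397+Anakinra mouse J17 and 0.111 at a pseudocount of 0.1. PLX3397 against Anakinra was lower in 6 of 9 members, against 5.41% of all genes, and Ccl7, Ccl5 and Ccl3 missed the threshold. That count was 3 at a pseudocount of 0.1.

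The effect of Anakinra with and without PLX3397 was compared directly as an interaction on the log2 scale. Limma called 0 of 9 members and 0 of 17267 genes (0%), with 5 members and 1395 genes (8.08%) at an unadjusted p below 0.05. Ccl5 had the estimate farthest from 0, at -1.13 (SE 0.30, limma adjusted p = 0.336). Anakinra against vehicle was 0.48 for this gene, and PLX3397+Anakinra against PLX3397 was -0.65. The estimates were -1.02 for Ccl7, -0.94 for Ccl8, -0.69 for Ccl12 and -0.58 for Ccl2, whose adjusted p-values lay between 0.467 and 0.561. For Ccl6 the estimate was 0.03 and for Ccl9 -0.20.

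Against sham, 9 of 9 members stayed higher with PLX3397, against 22.7% of all genes, and 9 of 9 with Anakinra, against 25.1%. With both drugs 8 of 9 were higher than in sham mice, against 20.7% of all genes. The exception was Ccl8, at 0.410 ± 0.285 TPM against 0.223 ± 0.305 TPM in sham mice (log2 fold change 0.21, 95% confidence interval -0.30 to 0.72, adjusted p = 0.531). Set on a common scale, the share of the rise from sham to vehicle that remained had a median over the 9 members of 63.7% with PLX3397, 111% with Anakinra and 44.0% with both drugs. With PLX3397 it was 27.2% ± 15.8 (SD, n = 5) for Ccl8, 30.1% ± 11.1 for Ccl9 and 36.7% ± 15.3 for Ccl6. For Ccl3, Ccl4, Ccl7, Ccl12 and Ccl2 it lay between 62.5% and 69.4%, and for Ccl5 it was 138% ± 57.3. With both drugs it was 4.30% ± 6.57 for Ccl8, 23.2% ± 8.44 for Ccl9, 29.7% ± 16.8 for Ccl7 and 30.04% ± 4.21 for Ccl6. Ccl12 kept 44.0% ± 3.91, and the others kept between 46.8% (Ccl3) and 75.7% (Ccl5).

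**Figure D3:**
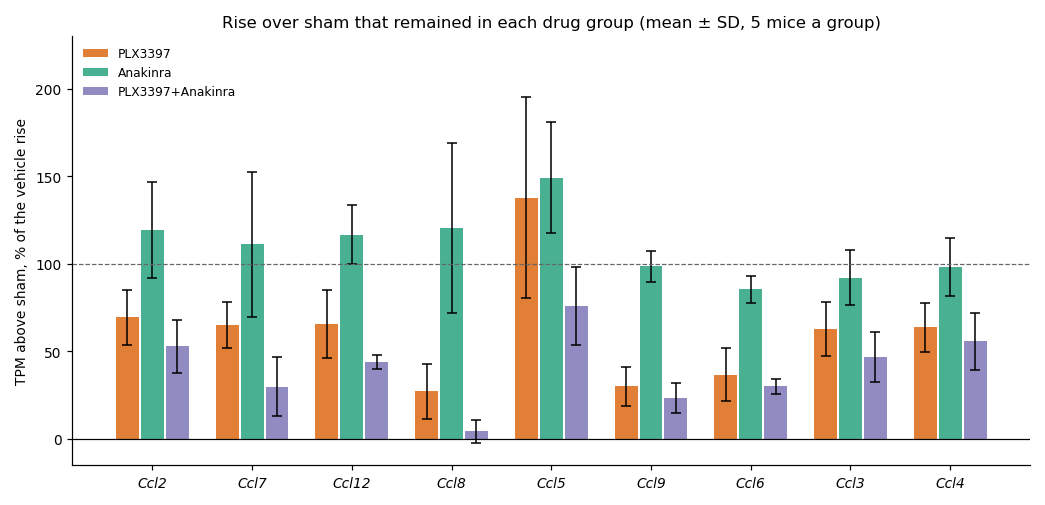
Share of the rise from the sham mean to the vehicle mean that remained in each drug group, in percent (y axis, from below 0), for each CC chemokine (x axis). Bars are means of 5 mice, error bars are SD and the dashed line marks the vehicle mean at 100%. PLX3397 leaves 27.2% to 36.7% for Ccl8, Ccl9 and Ccl6 and 138% for Ccl5, and both drugs leave 4.30% for Ccl8.

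The makeup of the summed level shifted with these differences. The sum of the 9 members was 79.3 ± 16.9 TPM with PLX3397, 137 ± 14.5 TPM with Anakinra and 58.2 ± 8.16 TPM with both drugs (SD, n = 5). Ccl12 made up 23.4% ± 3.79 of the sum in vehicle mice and 25.5% ± 3.93 with PLX3397, and Ccl6 made up 22.4% ± 1.71 and 15.6% ± 2.73. Ccl5 made up 4.22% ± 0.969 in vehicle mice (2.59% to 4.93%) and 9.14% ± 1.95 with PLX3397 (6.47% to 11.1%), with no overlap. Ccl8 went from 3.41% ± 0.648 in vehicle mice to 0.669% ± 0.456 with both drugs. With PLX3397 the order of the mean levels was Ccl12, Ccl3, Ccl6, Ccl2, Ccl5, Ccl4, Ccl9, Ccl7 and Ccl8, and only Ccl7 and Ccl8 had ranges that did not overlap as neighbours.

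Most markers of CSF1R-dependent cells were lower than vehicle in both groups given PLX3397. The 8 microglial markers, Csf1r among them, were all lower with PLX3397 and with both drugs. Their median log2 fold changes were -1.35 and -1.43, against -0.59 and -1.06 for the members. With PLX3397 the markers ranged from -1.74 to -0.61 and the members from -1.22 to 0.33. Their summed level was 1349 TPM in vehicle mice (1168 to 1476), 586 TPM with PLX3397 (495 to 757), 1322 TPM with Anakinra (1261 to 1424), 534 TPM with both drugs (454 to 609) and 329.7 TPM in sham mice (320.5 to 339). Between both drugs and PLX3397, limma called 0 of these 8 markers, with 0 at an unadjusted p below 0.05. It called 0 of 9 members there, with 4 at that unadjusted p. Of all genes, 0.145% were called lower there and 6.71% reached that unadjusted p in either direction. The 7 border macrophage markers summed to 121 TPM in vehicle mice (75.7 to 157), 52.7 TPM with PLX3397 (34.5 to 69.7), 91.7 TPM with Anakinra (73.5 to 108) and 15.8 TPM with both drugs (13.6 to 20.6), where 3 of 7 were lower than with PLX3397. In sham mice they summed to 12.9 TPM (11.3 to 14.4). From PLX3397 to both drugs the means of Pf4 (30.6 to 7.55 TPM), F13a1 (12.2 to 3.57) and Ms4a7 (6.44 to 2.11) differed most. Those of Cbr2 (2.00 to 1.22) and Mrc1 (0.987 to 0.678) were lower too, while Cd163 (0.305 and 0.308) and Lyve1 (0.223 and 0.330) were not. The 6 neutrophil markers, of which 4 passed the filter, summed to 41.0 TPM in vehicle mice, 38.7 TPM with PLX3397 and 24.6 TPM with both drugs. With PLX3397, Csf3r (19.6 to 8.78 TPM) and Mmp8 (3.82 to 2.37 TPM) were lower than in vehicle mice, while S100a8 (11.5 and 18.9 TPM) and S100a9 (5.69 and 8.12 TPM) did not pass the test. The 6 monocyte markers, of which 5 passed the filter, summed to 127 TPM, 139 TPM and 136 TPM in these groups, of which Fn1 alone gave 107, 121 and 121 TPM. With both drugs 2 of these 5 were lower than in vehicle mice, Ccr2 (2.23 to 0.596 TPM) and Chil3 (2.81 to 0.971 TPM), and the median log2 fold change was -0.30. Of the 9 T and NK cell markers only Cd4 passed the filter. It gave 16.4 of their sum of 18.2 TPM in vehicle mice and 17.4 of 19.3 TPM with PLX3397. Cd4 was at 15.5 TPM in sham mice too. The other markers of this list were under the filter, so the sum does not show whether T or NK cells differed. The 4 red blood cell markers were lower with PLX3397 too, at 609.9 TPM against 2343 TPM in vehicle mice. The part of these markers in the chemokine differences was not tested.

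Each member was also set against the summed microglial markers, as TPM per 1000 marker TPM. This quantity was chosen after the values were seen, is a description without a test, and rises by itself where the markers fall and a gene does not. For Ccl6 it was 21.7 ± 1.68 in vehicle mice, 20.9 ± 3.25 with PLX3397 and 20.1 ± 1.55 with both drugs (SD, n = 5), and for Ccl9 it was 8.30 ± 1.41, 7.22 ± 1.15 and 6.62 ± 1.04. The vehicle and PLX3397 mice overlapped in both genes. For Ccl5 it was 4.08 ± 0.975 in vehicle mice and 12.4 ± 3.41 with PLX3397, with no overlap. Ccl2 (10.6 and 17.4), Ccl3 (14.6 and 21.8) and Ccl4 (7.52 and 11.4) did not overlap between vehicle and PLX3397 either, whereas Ccl7 and Ccl12 did. The share of all genes without overlap on this scale was not computed. Ccl8 stood at 3.34 ± 0.809 in vehicle mice, 2.45 ± 1.35 with PLX3397 and 0.739 ± 0.505 with both drugs. In sham mice Ccl6 was at 8.31 ± 2.23 and Ccl9 at 3.81 ± 1.13, both below every vehicle mouse.

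**Figure D4:**
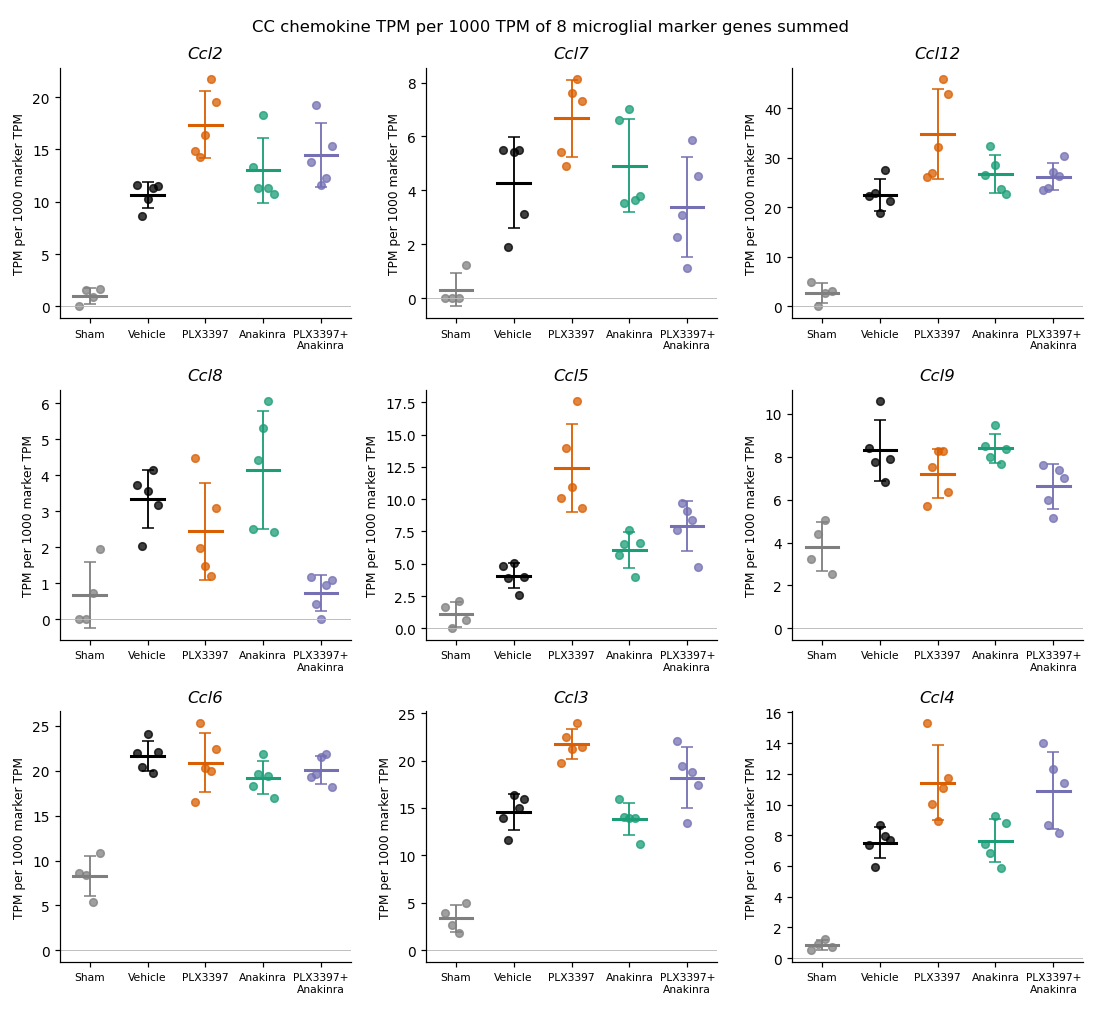
TPM of each CC chemokine per 1000 TPM of 8 summed microglial markers (y axis) in the 5 groups (x axis). Points are single mice, thick lines are means and error bars are SD. Ccl6 has similar means in vehicle (21.7) and PLX3397 mice (20.9), Ccl5 is higher with PLX3397 (12.4 against 4.08), and Ccl8 is at 0.739 with both drugs.

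The genes whose levels were most like each member over the 20 TBI libraries differed between members. This likeness is Pearson's r of log2(TPM + 1), it includes the differences between the groups, and it is a description. Ccl6 was nearest to Vsir, Fcrls and Csf3r (r from 0.98 to 0.99), and Ccl9 to Itgam, Bin2 and Cx3cr1 (each 0.98). Ccl8 was nearest to Milr1, H2-Aa and Cd74 (0.93 to 0.94), the last 2 of which belong to MHC class II antigen presentation. Ccl2 was nearest to Irgm2, Dtx3l and Phf11b (0.93 to 0.96), Ccl12 to Fcgr1, Phf11b and Ms4a6b (0.94 to 0.96), and Ccl7 to A530064D06Rik, Sp140 and Ccr1 (0.88 to 0.89). Ccl3 was nearest to Tmem37, Ckap2 and Cd9 (0.94 to 0.95), and Ccl4 to Ppcdc, Card9 and Plekho1 (0.89 to 0.90). For Ccl5 the nearest genes were Gbp6, Gm33908 and Ifi44, with an r of only 0.77 to 0.83. Gbp6 and Ifi44 are known interferon-inducible genes. Among the members themselves, r over the 36 pairs had a median of 0.81 and ran from 0.32 to 0.97. After the group means were subtracted, over all 24 libraries, the median was 0.35, and r was above 0 in 35 of 36 pairs. It was highest for Ccl6 with Ccl3 (0.78) and lowest for Ccl8 with Ccl5 (-0.22).

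Among the other CC ligands that passed the filter, none was called higher in vehicle mice than in sham mice. Of 15 listed, 14 were in the table and 8 passed the filter, and against sham 0 were higher and 3 lower in vehicle mice, where 26.6% and 27.7% of all genes were higher and lower. At an unadjusted p below 0.05 limma found these same 3. The median was -0.22. With PLX3397, 2 of 8 were higher than in sham mice, Ccl11 and Ccl19, and 2 were lower, against 22.7% and 22.5% of all genes. With Anakinra, 1 was higher, Ccl11, and 2 were lower, against 25.1% and 29.2%. With both drugs 0 were higher and 2 lower, against 20.7% and 18.1%. Ccl27a, known as a skin T cell attractant, was at 70.9 ± 4.66 TPM in vehicle mice and 116 ± 9.14 TPM in sham mice (log2 fold change -0.70, SE 0.07, adjusted p = 2.8e-09). It was higher than vehicle with PLX3397 (82.4 ± 8.03 TPM, log2 fold change 0.21, adjusted p = 0.0312) and with both drugs (87.1 ± 2.55 TPM, 0.29, adjusted p = 0.00157). Ccl27b (-0.81, adjusted p = 1.7e-05) and Ccl21b (-1.66, adjusted p = 0.041) were the other 2 that were lower in vehicle than in sham mice. Ccl21b was listed at 0 in 1 of 5 vehicle mice, and its vehicle range (0 to 23.2 TPM) overlapped that of sham mice (18.8 to 47.2 TPM). The copies of Ccl21 and Ccl27 are closely related in the mouse, so the division of reads among them is uncertain. Ccl24, an eosinophil attractant, was under the filter and was not tested. Its mean was 0.310 TPM in sham mice, 0.807 TPM in vehicle mice, 0.193 TPM with PLX3397, 0.869 TPM with Anakinra and 0.213 TPM with both drugs.

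Of 15 receptor genes, 7 passed the filter. Ccr1, Ccr2 and the atypical receptor Ccrl2 were higher in vehicle than in sham mice, and the scavenging receptor Ackr2 was lower (-0.29, adjusted p = 0.0331). In that comparison 26.6% of all genes were higher and 27.7% lower. Ccr1 fell by 1.04 with PLX3397 and by 1.53 with both drugs on the log2 scale, from 3.18 TPM in vehicle mice to 0.995 TPM and 0.411 TPM. Ccr2, the receptor of Ccl2, Ccl7 and Ccl12, fell by 0.84 and 1.00, from 2.23 TPM to 0.800 TPM and 0.596 TPM, which was still above every sham mouse. Ccrl2 was lower with both drugs (-0.53, adjusted p = 0.00687), and its difference with PLX3397 was -0.12. Of all genes, 6.66% were lower than vehicle with PLX3397 and 9.6% with both drugs. With Anakinra alone limma called 0 of 7, against 0.116% of all genes in either direction. At an unadjusted p below 0.05 it found 1, Ccrl2, at -0.35, and 12.4% of all genes. Ackr1 (-0.10) and Ccr10 (0.17) did not pass the test of injury against sham.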

How the data were processed

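RNA from brain tissue of 24 mice was sequenced as polyA-enriched paired-end libraries. The authors mapped the reads in CLC Genomics Workbench to mouse genome GRCm38 and deposited TPM, of which the table with full precision was used. A filtered table with the authors' own test results was not used here. The tables hold no counts, so no counting interval is given, and precision rests on the 4 or 5 mice of a group. The labelled treatment set the group of each sample, and none was left out. Genes averaging 0.5 TPM or more were tested on log2(TPM + 1) with limma 3.58.1 in R 4.3.3, with trended variance, all groups in 1 model and Benjamini-Hochberg adjustment. The code was tested on simulated data. The methods name t-tests and fold changes. Single values were compared by exact two-sided permutation.

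The members, lists and alternatives were chosen with earlier results of these data known. Named were all members, most tested genes of both pathway lists, and the 3 genes most like each member. The tested ligands Ccl17, Ccl25 and Ccl28 are not described, and Ccl24 was named though untested. 1 receptor gene is not reported here. Transcripts came from GENCODE and promoters from RefSeq. Protein sequences were not used here, and coding sequences took their place. Alternatives were pseudocount, filter, scaling, robust variance, model groups, table, test, the study's criteria, a replicate block and leaving out each mouse.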

Additional observations from a re-analysis of the deposited data

Results flagged for a closer look

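Each of the 9 members was checked in each of the 5 groups for a mouse far from the others by Dixon's test, and 2 of the 45 sets of values stood out. Chance alone flags about 1 in 20. Ccl12 was at 40.76 TPM in the vehicle mouse J19B, and the nearest vehicle mouse was at 30.38 TPM. Ccl7 was at 0.4122 TPM in the sham mouse J16, while the other 3 sham mice were listed at 0.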

How the results depend on the processing

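Counts of members called held within 1.5 times in all other settings and comparisons not named here. With PLX3397 against vehicle (6 members), the count was 3 at a pseudocount of 0.1, without the filter and with only the compared groups, 2 under the study's 3 criteria (unadjusted p below 0.05, ratio above 2, difference above 4 TPM), and between 3 and 7 when 1 mouse was left out. PLX3397 against Anakinra (6) gave 3 at a pseudocount of 0.1 and 3 under the study's criteria. PLX3397+Anakinra against sham (8) gave 5 under these criteria. The exact permutation test, unadjusted, gave 1 for Anakinra against vehicle and 4 for PLX3397+Anakinra against PLX3397, where limma gave 0. A mean of at least 5 TPM left Ccl7 and Ccl8 untested. Against vehicle, the Anakinra estimate changed sign for Ccl4 after rescaling (0.0074). With 1 mouse left out it ran from -0.130 to 0.0680 for Ccl4, from -0.0626 to 0.112 for Ccl9 and from -0.0803 to 0.299 for Ccl7, and none of these was called. The cause was not tested. Animal numbers J01, J17, J19 and J20 recur across groups, and the deviations of same-numbered mice correlated at 0.17, 0.32, -0.13 and -0.07, so the numbers were not taken as pairs. With them as a replicate block, 6 members were lower with PLX3397 and 8 with both drugs. Depth is unknown and limits what can be said of members near 0 in sham mice.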
